A study of Mus musculus with 6 samples.

Results

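The genes described here encode the SNARE proteins, the synaptotagmins and the vesicle proteins that work beside them, read in regulatory T (Treg) cells with and without a deletion of Rcor1. Members were the protein-coding rows of the deposited table whose mouse symbol is Syt, Stx, Stxbp, Vamp, Snap, Syngr or Syn followed by a number and at most 1 letter, which gave 57 genes of 35275. Of these, 27 reached at least 1 FPKM (fragments divided by gene length in kilobases and by library size) in at least 3 of the 6 libraries and entered the test, which was fitted over 11575 genes. The deletion group carried floxed Rcor1 with a Cre recombinase and yellow fluorescent protein (YFP) expressed from Foxp3, and the control group carried the same Foxp3 YFP-Cre allele without floxed Rcor1. Both groups thus share the Cre allele. The design aims deletion at cells that have expressed Foxp3, and where deletion took place was not tested here. The 3 libraries of each group came from independent biological replicates, CD4+ cells of male mice aged 6 to 8 weeks, sorted for YFP.

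SNAREs are membrane-anchored proteins that zip together to pull a vesicle onto its target membrane. VAMPs sit on the vesicle, syntaxins and SNAP-25 family proteins on the target, Sec1/Munc18 proteins (several of the Stxbp genes) guide their assembly, and many synaptotagmins sense the calcium that triggers fusion. The set is best known from neurotransmitter release, and T cells use the same machinery to recycle receptors, release cytokines and empty cytotoxic granules. CoREST1, the product of Rcor1, is recruited to many neuronal genes by the repressor REST, which binds a DNA element called RE1.

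Recovered library totals were 18538581 to 22349455 fragments. Rcor1 held 12.5, 13.0 and 14.2 FPKM in the deletion libraries and 16.1, 16.1 and 15.2 FPKM in the control libraries, a difference that did not pass the threshold (log2 fold change -0.24, adjusted p = 0.0562). The sources used here do not state which exons were floxed, so fragments from the remaining exons limit what this level can check. Treg markers (7 genes, 1 of 7 tested rose) were high throughout. Foxp3 was at 99.9 to 106 FPKM in deletion libraries and 88.0 to 106 FPKM in control libraries. Ikzf2 was the 1 that rose, with 58.7, 62.4 and 66.4 FPKM in deletion libraries. It had 51.1, 50.6 and 40.6 FPKM in control libraries (limma adjusted p = 0.0463). Summed markers of lens (5 genes, 5 fell) were at 0.206 to 0.406 FPKM in deletion libraries and 102 to 191 FPKM in control libraries, and those of fat (5 genes, 4 of 4 tested fell) at 0.591 to 1.38 and 45.5 to 56.8 FPKM. Markers of B cells (8 genes, 0 of 4 tested passed) summed to 39.0 to 46.0 FPKM in deletion libraries and 20.8 to 42.6 FPKM in control libraries. Those of neurons (7 genes, the member Snap25 included) summed to 0.164 to 1.22 FPKM in deletion libraries and 0.423 to 1.40 FPKM in control libraries. The part of these other cells in the results below was not tested, and in bulk RNA fewer cells of a type cannot be told apart from less RNA per cell.

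Among the tested members, 3 of 27 rose with Rcor1 deletion and 0 fell. Vamp5, Syt11 and Vamp2 were the genes that rose. The share that changed was 11.1%, against 12.0% of all 11575 tested genes, so the count by itself does not set these genes apart from the rest. Of all tested genes 8.95% rose and 3.08% fell, as 1036 against 356 genes, a split that became 528 against 688 under median-ratio scaling. An unadjusted p under 0.05 was reached by 10 members (37.0%), all of them higher in deletion libraries, against 32.6% of all tested genes and 24.6% that were also higher. The median log2 fold change was 0.09 over the members and 0.08 over all tested genes. In 11 of the 27 members (40.7%) every deletion library lay above every control library, against 29.3% of all tested genes. Stx6 was the 1 member (3.7%) with every deletion library below every control library, against 9.79% of all tested genes. Stx4a was the most abundant at 65.1 FPKM, as a mean over the 6 libraries, and 18 members averaged at least 10 FPKM.

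**Figure D1:**
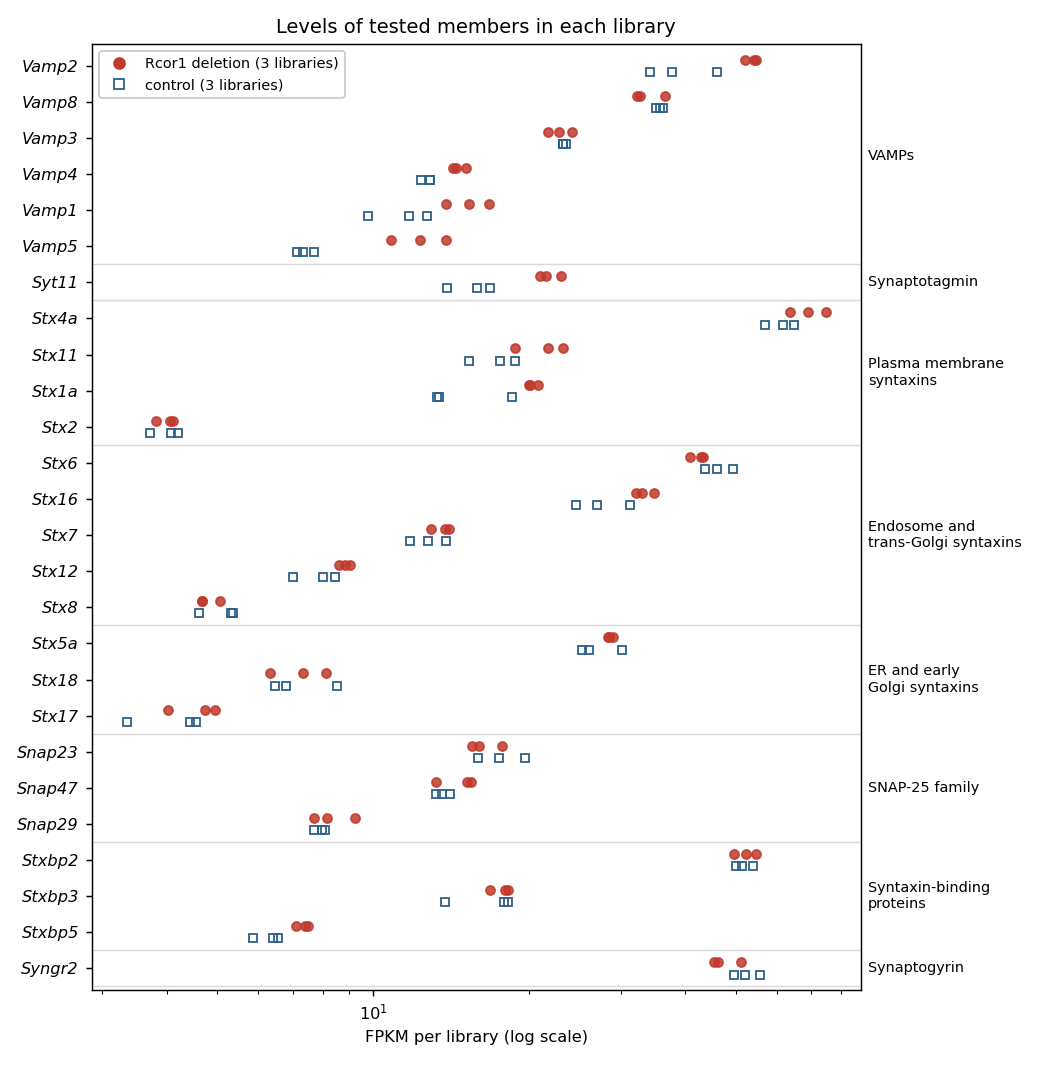
Level of the tested members reported here in FPKM (x axis, log scale) in the 3 Rcor1 deletion libraries (filled circles) and the 3 control libraries (open squares), by functional class. Most members overlap between groups, whereas Vamp5 lies at 10.8 to 13.8 FPKM in deletion libraries and 7.12 to 7.69 FPKM in control libraries.

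**Figure D2:**
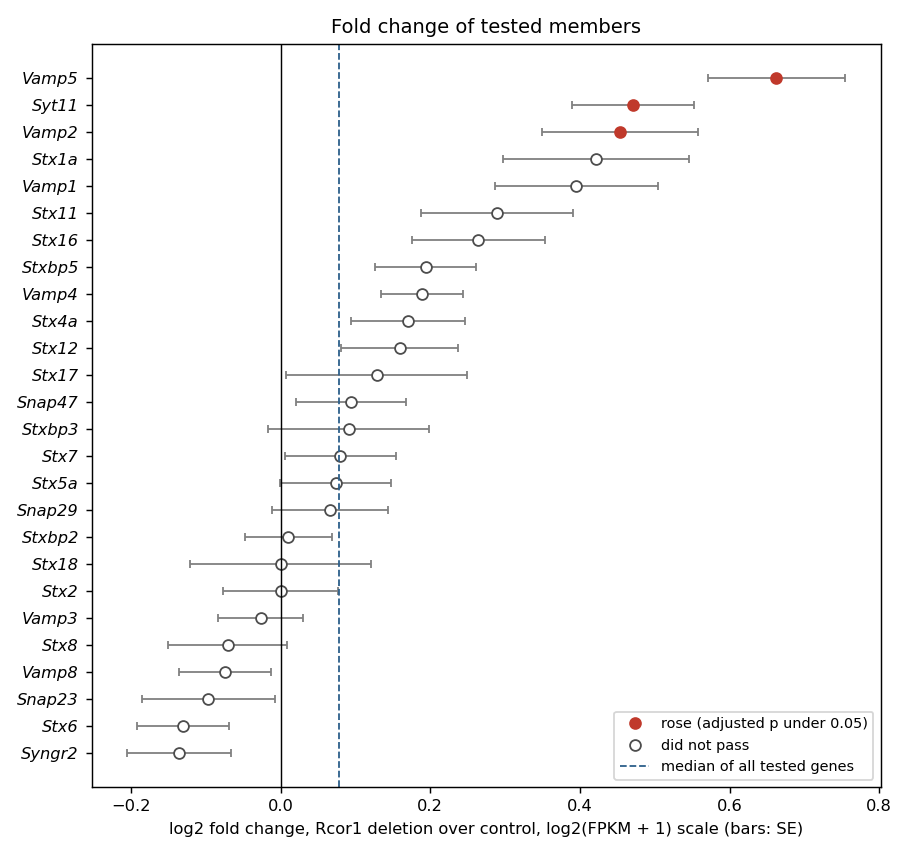
Log2 fold change of the tested members reported here, Rcor1 deletion over control (x axis; points are estimates, bars their SE, n = 3 libraries per group). Filled points mark Vamp5, Syt11 and Vamp2, which passed the threshold, and the dashed line marks the median of all tested genes at 0.08.

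The VAMPs, the vesicle-side SNAREs, held 2 of the 3 calls. Vamp5, also called myobrevin and first described in muscle, had 12.3, 13.8 and 10.8 FPKM in deletion libraries, against 7.12, 7.69 and 7.33 FPKM in control libraries. The lowest deletion library stood well above the highest control library. Vamp5 rose 1.67-fold by group means (log2 fold change 0.66, SE 0.091, limma adjusted p = 0.00887), and it stayed past the threshold in all 15 alternative settings, with adjusted p-values up to 0.0464. Summed skeletal muscle markers were at 16.4 to 21.6 FPKM in deletion libraries and 18.4 to 21.2 FPKM in control libraries, nearly all of it Mylpf.

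Vamp5 (chromosome 6, 72368794 to 72380468 on the minus strand of GRCm38) lies 4754 bases from Vamp8, which is on the same strand. Vamp8, the endobrevin of late endosomes and secretory granules, had 32.8, 36.6 and 32.3 FPKM in deletion libraries and 35.7, 35.1 and 36.2 FPKM in control libraries (log2 fold change -0.07, adjusted p = 0.437), so the groups overlapped. The ratio of Vamp5 to Vamp8 within a library does not depend on how libraries are scaled. It was 0.376, 0.377 and 0.335 in deletion libraries and 0.1996, 0.219 and 0.202 in control libraries. The groups did not overlap (two-sided exact permutation p = 0.1, the smallest that 3 against 3 libraries allow, and 0.1 adjusted over the 2 ratios computed). This ratio and that of Vamp2 to Vamp3 below each divide a member that passed by 1 that did not. They were chosen with earlier results known, so they describe the Vamp5 and Vamp2 calls again and are no separate support.

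Vamp2, synaptobrevin 2, is the main vesicle SNARE of synapses and also serves regulated exocytosis in other cells. It was the most abundant VAMP, at 52.2, 54.3 and 54.8 FPKM in deletion libraries and 37.7, 46.0 and 34.1 FPKM in control libraries. Control library 2 lay nearer to the deletion libraries than control libraries 1 and 3 did. Vamp2 rose 1.37-fold (log2 fold change 0.45, SE 0.10, adjusted p = 0.0383). The call was lost without control library 1 or 3 or any deletion library (adjusted p = 0.0789 to 0.124), after scaling by median ratios (adjusted p = 0.0639) and when low genes were kept in (adjusted p = 0.0750). Vamp3, or cellubrevin, its close relative on recycling endosomes, was at 24.1, 22.9 and 21.7 FPKM in deletion libraries and 23.5, 23.3 and 23.2 FPKM in control libraries (adjusted p = 0.776). The ratio of Vamp2 to Vamp3 was 2.16, 2.37 and 2.52 in deletion libraries, against 1.604, 1.98 and 1.47 in control libraries (exact permutation p = 0.1, likewise the smallest possible).

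The remaining VAMPs did not pass the threshold, though neither overlapped between groups. Vamp1, synaptobrevin 1, had 15.3, 13.9 and 16.8 FPKM in deletion libraries and 11.8, 12.7 and 9.79 FPKM in control libraries (log2 fold change 0.40, adjusted p = 0.0572). Vamp4, which serves transport at the trans-Golgi network, had 15.1, 14.5 and 14.3 FPKM in deletion libraries and 12.8, 12.9 and 12.4 FPKM in control libraries (log2 fold change 0.19, adjusted p = 0.0662). Over the 6 VAMPs together the summed level was 153 ± 2.7 FPKM in deletion libraries and 130 ± 7.4 FPKM in control libraries (SD, n = 3 each). The sum includes Vamp5 and Vamp2, so it describes those calls again and is no separate support.

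**Figure D3:**
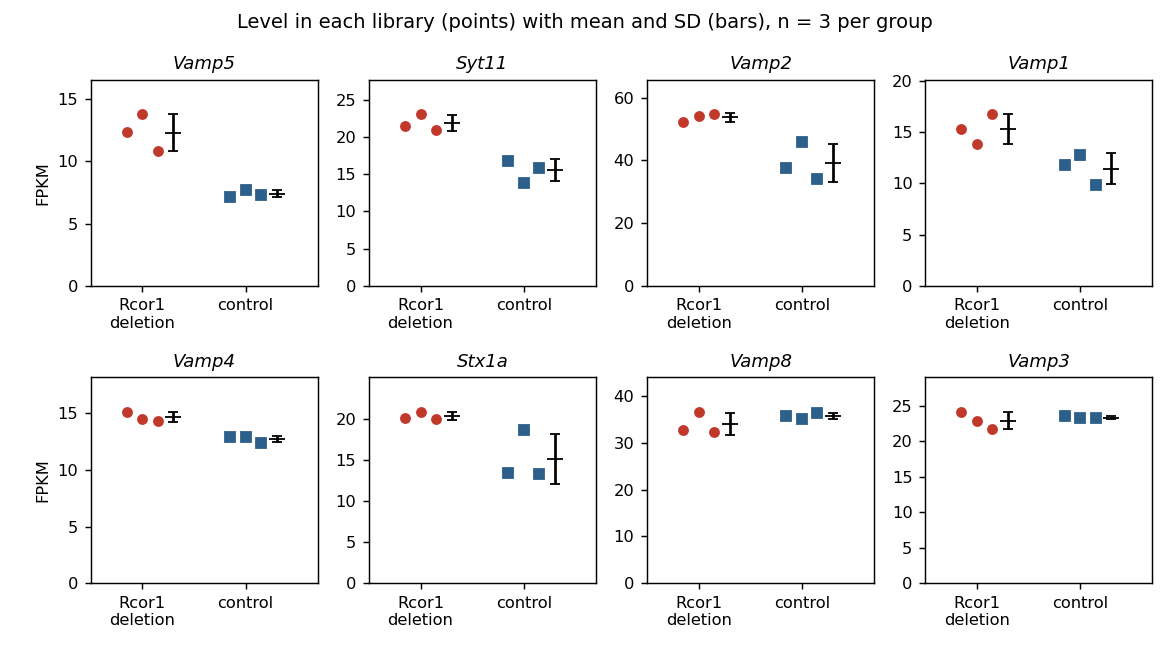
FPKM (y axis, from 0) of 8 members in each library, with mean and SD beside the points (n = 3 per group; Rcor1 deletion left, control right). Vamp5, Syt11, Vamp2, Vamp1, Vamp4 and Stx1a do not overlap between groups, whereas Vamp8 and Vamp3 do.

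Synaptotagmins are membrane proteins with paired C2 domains, and Treg libraries held 1 of the 17 at a level that could be tested. Syt11, whose C2 domains lack the calcium binding of the fast sensors and which acts in vesicle trafficking, had 21.5, 23.1 and 21 FPKM in deletion libraries and 16.8, 13.9 and 15.9 FPKM in control libraries. All deletion libraries were higher than all control libraries. Syt11 rose 1.41-fold (log2 fold change 0.47, SE 0.082, adjusted p = 0.0176), a call lost without deletion library 1, 2 or 3 (adjusted p = 0.0566, 0.0671 and 0.0624). It made up 96.8% to 97.9% of the summed synaptotagmin FPKM in deletion libraries and 96.2% to 97.2% in control libraries. The other 16 synaptotagmins did not exceed 0.256 FPKM in any library. Syt7, a slow calcium sensor used by cytotoxic T cells, had 1, 5 and 0 fragments in deletion libraries and 2, 8 and 5 fragments in control libraries. Syt1, the fast calcium sensor of synapses, had 0, 8 and 3 fragments in deletion libraries and 0 in each control library. Syt10 and Syt4 had 0 fragments in all libraries, which allows up to 0.0133 and 0.00632 FPKM (3 fragments over the 6 libraries together, for counting error only).

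The stretches before the start sites of Vamp5 and Syt11, the members with the smallest p-values, are shown because CoREST complexes act at promoters and regulatory elements through factors that bind DNA. They are RefSeq sequences of GRCm38.p6 covering 250 bases upstream of 1 RefSeq start per gene on the minus strand. They lie at chr6:72380469-72380718 for Vamp5 and chr3:88772600-88772849 for Syt11. The Syt11 stretch lies inside the gene as placed by GENCODE (88744700 to 88775164), so it does not cover a start at the outer end of the gene. Capitals mark CAGCACC and GGACAG, short letters from the left and the right part of RE1, and AAATCA, letters of the site of the CoREST partner GFI1, each searched on both strands with no overlap between them.
Vamp5: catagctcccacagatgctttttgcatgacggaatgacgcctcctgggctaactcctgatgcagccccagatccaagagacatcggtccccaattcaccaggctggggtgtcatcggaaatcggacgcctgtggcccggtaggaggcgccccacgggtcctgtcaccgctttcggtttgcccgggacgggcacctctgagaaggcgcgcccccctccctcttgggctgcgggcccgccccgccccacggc
Syt11: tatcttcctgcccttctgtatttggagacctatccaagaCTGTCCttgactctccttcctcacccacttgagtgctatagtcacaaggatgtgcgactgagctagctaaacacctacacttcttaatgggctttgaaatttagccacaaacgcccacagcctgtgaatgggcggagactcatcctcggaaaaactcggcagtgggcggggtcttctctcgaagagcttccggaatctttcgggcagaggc
GGACAG was found 1 time in the Syt11 stretch and is common, in 18.7% of 32851 promoters of this length. CAGCACC (5.73% of promoters) and AAATCA (12.4% of promoters) were in neither stretch. RefSeq promoters matched 43 of the 57 members, and Vamp2 was not among them.

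Plasma membrane syntaxins are the target-side SNAREs of secretion, and of their 7 members 4 were tested and 0 passed. Stx1a, the neuronal syntaxin, had 20.1, 20.8 and 19.97 FPKM in deletion libraries and 13.4, 18.6 and 13.3 FPKM in control libraries. The groups did not overlap, but control library 2 lay close to the deletion libraries (log2 fold change 0.42, SE 0.12, adjusted p = 0.0674). Without control library 2 the adjusted p was 0.00605 for Stx1a, 0.0361 for Vamp1 and 0.0235 for Stx16. In that fit 6 of 27 members changed (22.2%), all of them higher. The share of all genes that changed was also higher, at 16.3% of 11425, with 1434 that rose. With any other library left out, the adjusted p was 0.149 to 0.177 for Stx1a, 0.0893 to 0.173 for Vamp1 and 0.162 to 0.216 for Stx16. In those fits 1 or 2 of the members changed (3.7% or 7.41%), against 2.45% to 4.63% of all tested genes. Summed plasma cell markers (5 genes, 0 of 5 tested passed) also set control library 2 apart, at 484 to 587 FPKM in deletion libraries and 190, 491 and 210 FPKM in control libraries. Control library 2 was also the highest control in other marker sums, among them lens (107, 191 and 102 FPKM) and Treg (1047, 1168 and 996 FPKM). It was not the highest in others, such as B cell and myeloid markers. The part of plasma cells or other cells in the values of the members was not tested.

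Stx11 works with Stxbp2 in the release of cytotoxic granules, and loss of either causes familial hemophagocytic lymphohistiocytosis in humans. Stx11 had 18.8, 23.2 and 21.8 FPKM in deletion libraries and 18.7, 15.3 and 17.5 FPKM in control libraries (log2 fold change 0.29, SE 0.10, adjusted p = 0.101). The lowest deletion library and the highest control library nearly touched. Summed myeloid markers (6 genes, 0 of 6 passed) were at 9.83, 82.3 and 34.6 FPKM in deletion libraries 1, 2 and 3. They were at 11.5, 30.0 and 49.4 FPKM in control libraries 1, 2 and 3. Deletion library 2 was the highest in both Stx11 and these markers, whereas control library 1 had the most Stx11 and the fewest markers of the controls. The part of myeloid cells in the Stx11 values was not tested. Stxbp2, or Munc18-2, was at 52.3 ± 2.6 FPKM in deletion libraries and 51.9 ± 2.0 FPKM in control libraries (SD, n = 3 each, adjusted p = 0.918). Stx4a, the widely expressed plasma membrane syntaxin and the most abundant member, was at 69.0 ± 5.5 and 61.2 ± 3.8 FPKM in deletion and control libraries (adjusted p = 0.171). Stx2 was at 3.99 ± 0.16 FPKM in deletion libraries and 3.996 ± 0.25 FPKM in control libraries (adjusted p = 1.0).

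Syntaxins of internal membranes showed 0 calls among 8 tested. Stx16, which returns cargo from endosomes to the trans-Golgi network, had 32.1, 34.7 and 32.9 FPKM in deletion libraries and 27.1, 31.2 and 24.7 FPKM in control libraries (log2 fold change 0.26, SE 0.089, adjusted p = 0.0929). Stx6, its partner at the trans-Golgi network, lay in the opposite direction, with 40.8, 43.3 and 42.8 FPKM in deletion libraries and 46.1, 43.7 and 49.5 FPKM in control libraries (log2 fold change -0.13, adjusted p = 0.192). Neither gene overlapped between groups. Stx12, a syntaxin of recycling endosomes, averaged 8.82 ± 0.21 FPKM in deletion libraries and 7.82 ± 0.73 FPKM in control libraries, also without overlap (adjusted p = 0.205). Stx7 and Stx8, the pair of late endosomes, and Stx5a, Stx17 and Stx18, which serve the early Golgi, autophagosomes and the endoplasmic reticulum, overlapped between groups with adjusted p-values of 0.484 to 0.999. Part of the Stx18 exons, 574 bases, overlaps Nsg1 on the opposite strand, and the sources used here do not state whether fragments were counted by strand. Nsg1 was at 0.112 FPKM in deletion libraries and 0.280 FPKM in control libraries.

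SNAP-25 family proteins give 2 helices to a SNARE bundle, and Snap23, Snap47 and Snap29 were the members that passed the filter. Snap23, the non-neuronal form, was at 16.4 ± 1.2 FPKM in deletion libraries and 17.6 ± 1.8 FPKM in control libraries (adjusted p = 0.486). Snap47 was at 14.6 ± 1.2 and 13.6 ± 0.43 FPKM and Snap29 at 8.36 ± 0.78 and 7.92 ± 0.20 FPKM in deletion and control libraries, and 0 of the 3 passed. Exons of Snap47 share 307 bases with Jmjd4 on the opposite strand, at 4.92 and 5.15 FPKM in deletion and control libraries. Those of Snap29 share 60 bases with Pi4ka on the opposite strand, at 23.3 and 22.5 FPKM. The part of Jmjd4 and Pi4ka in the fragments of these members was not tested. Snap25, the neuronal form, had 0, 14 and 0 fragments in deletion libraries and 0, 1 and 0 fragments in control libraries. Deletion library 2 thus held nearly all of it, and the same library held the most fragments of Syt1 and of Snap91, a clathrin assembly protein that is no SNARE.

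Syntaxin-binding proteins guide or restrain SNARE assembly, and 0 of 4 tested passed. Stxbp5, or tomosyn, an inhibitor of SNARE assembly, had 7.38, 7.48 and 7.09 FPKM in deletion libraries and 6.55, 6.40 and 5.87 FPKM in control libraries (log2 fold change 0.19, SE 0.068, adjusted p = 0.1). Deletion libraries lay above control libraries without overlap. Stxbp3, or Munc18c, the partner of syntaxin 4, was at 17.7 ± 0.72 FPKM in deletion libraries and 16.6 ± 2.5 FPKM in control libraries (adjusted p = 0.589).

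Below the filter lay 30 members, of which 27 had fragments and 3, Stxbp5l with Syt4 and Syt10, had none. Of the 27 with fragments, 23 stayed under 0.5 FPKM in every library. The other 4 were Stx3, at 0.738 FPKM in deletion libraries and 0.867 FPKM in control libraries on average, Stxbp4 (0.537 and 0.495 FPKM), Syngr3 (0.414 and 0.499 FPKM) and Syngr4 (0.499 and 0.309 FPKM). All 4 overlapped between groups. Among the 27, 2 (7.41%) had every deletion library above every control library, against 8.04% of 10323 genes below the filter with fragments, and 0 had every deletion library below every control library, against 6.47% of them. The 2 were Syn1 and Stxbp6, also called amisyn. Stxbp6 had 14, 15 and 11 fragments in deletion libraries and 4, 9 and 7 fragments in control libraries.

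**Figure D4:**
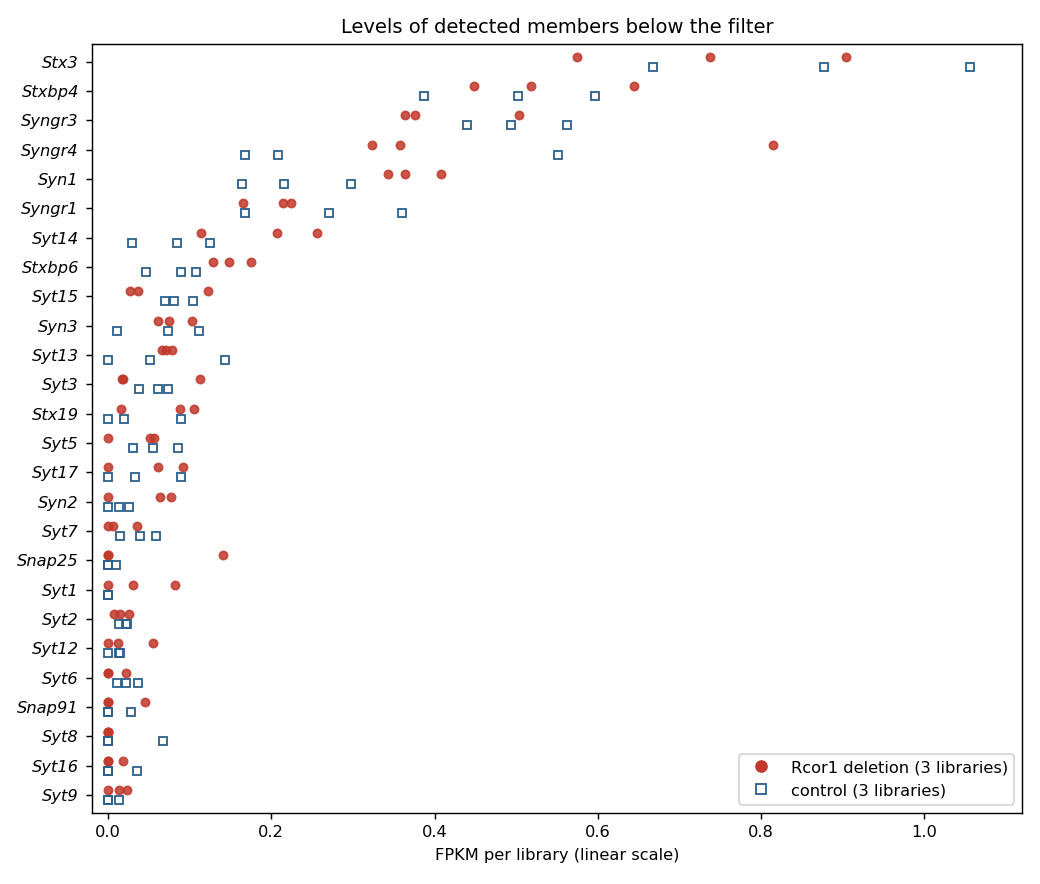
FPKM (x axis, linear scale) of members below the filter that had fragments, in the 3 Rcor1 deletion libraries (filled circles) and the 3 control libraries (open squares). Syn1 lies at 0.343 to 0.408 FPKM in deletion libraries and 0.164 to 0.298 FPKM in control libraries, and Snap25 stands out from 0 only in deletion library 2, at 0.141 FPKM.

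Syn1 encodes synapsin I, which tethers synaptic vesicles, and its RE1 is a textbook site of REST. It had 25, 27 and 24 fragments in deletion libraries, against 11, 14 and 18 fragments in control libraries, or 0.371 ± 0.033 and 0.226 ± 0.068 FPKM (SD, n = 3 each). With no filter on low values limma gave an unadjusted p of 0.0204 and an adjusted p of 0.142, so the difference did not pass. The Syn1 exons share 9 bases with those of Araf on the opposite strand, and Araf was at 52.2 FPKM in deletion libraries and 42.35 FPKM in control libraries. The part of Araf in the Syn1 fragments was not tested. Part of the Syn1 RefSeq promoter is shown because synapsin I is a textbook gene of this kind, with CAGCACC in capitals. It is the 100 bases farthest from the RefSeq start (20920918) of the 250 searched (GRCm38.p6, minus strand, chrX:20921069-20921168). The bases nearer the start are not shown.
Syn1: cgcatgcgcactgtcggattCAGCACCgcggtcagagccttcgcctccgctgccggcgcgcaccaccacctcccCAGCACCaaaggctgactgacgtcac
CAGCACC was found 2 times here, and in at least 1 promoter of 5 of the 43 members with a RefSeq entry. Those members have 55 promoters together. Of all 32851 promoters 5.73% held CAGCACC, a share per promoter and not per gene. GGACAG and AAATCA were not found in the Syn1 bases searched. They were in at least 1 promoter of 10 and 6 of the 43 members, and in 18.7% and 12.4% of all promoters. A match in letters is a description, not a bound site.

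Of the vesicle proteins beside the SNAREs, Syngr2 was the 1 that passed the filter. Syngr2, or cellugyrin, the synaptogyrin of non-neuronal cells, had 45.4, 51.3 and 46.3 FPKM in deletion libraries and 52.1, 49.5 and 55.6 FPKM in control libraries (log2 fold change -0.14, adjusted p = 0.222). It had the lowest log2 fold change of the 27 tested members, and its groups overlapped.

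Lists of the machinery around the members, chosen by role but with earlier results of these data known, held 51 tested genes. Of these, 5 rose and 1 fell (11.8%, against 12.0% of all tested genes), with a median log2 fold change of 0.04. The split depended on the scaling, with 2 that rose and 3 that fell by voom, and 2 that rose and 1 that fell under both median-ratio and quantile scaling. Of 12 further SNAREs such as Sec22b, Ykt6 and Vti1b, and of 13 tested helpers of SNARE recycling and tethering such as Nsf, 0 passed. Sv2a, a glycoprotein of synaptic vesicles and the 1 of 3 such proteins tested that rose, had 3.06, 2.71 and 2.85 FPKM in deletion libraries and 0.951, 1.22 and 1.29 FPKM in control libraries (log2 fold change 0.85, SE 0.10, adjusted p = 0.00507). The groups were far apart. Unc13d, or Munc13-4, which primes cytotoxic granules and was the 1 of 4 priming and calcium genes that rose, averaged 66.1 ± 2.3 FPKM in deletion libraries and 54.7 ± 0.12 FPKM in control libraries (adjusted p = 0.0187). Of 9 secretory Rabs and effectors, Rab27a, the granule Rab that recruits Munc13-4, fell to 35.2 ± 0.56 FPKM in deletion libraries, against 41.8 ± 1.3 FPKM in control libraries (adjusted p = 0.0268). Lyst, the lysosomal trafficking regulator, rose to 4.42 ± 0.37 FPKM in deletion libraries, against 3.04 ± 0.11 FPKM in control libraries (adjusted p = 0.0232). Rab37, a Rab of secretory granules, was at 70.2 ± 1.4 FPKM in deletion libraries and 60.9 ± 1.8 FPKM in control libraries (adjusted p = 0.0407). Of 10 exocyst subunits Exoc2 rose to 23.2 ± 0.61 FPKM in deletion libraries, against 19.4 ± 0.60 FPKM in control libraries (adjusted p = 0.0316). Leaving out 1 library at a time, the lists gave 1 to 9 calls in all.

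The tested genes whose log2(FPKM + 1) over the 6 libraries was most like that of Vamp5 were Lpar6, a receptor for lysophosphatidic acid (Pearson r = 0.999), Tradd, an adaptor of TNF receptor signalling (0.995), Prepl (0.994), ENSMUSG00000100370 (0.994) and Cdc14a (0.994). Lpar6 was at 5.11 FPKM in deletion libraries and 3.43 FPKM in control libraries on average. These correlations describe 6 points that share 1 difference between groups, and 261 genes reached an r of at least 0.95.

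**Figure D5:**
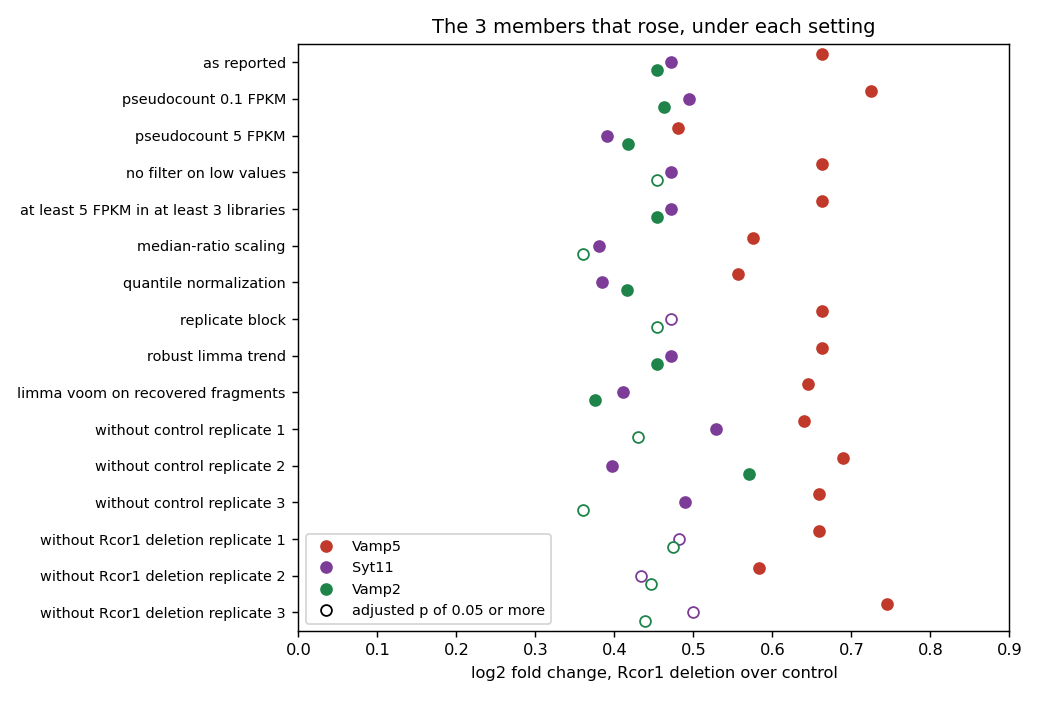
Log2 fold change of Vamp5, Syt11 and Vamp2 (x axis, Rcor1 deletion over control) as reported and under 15 alternative settings (y axis), with open points where the adjusted p was 0.05 or more. Vamp5 passed under every setting shown, Syt11 in 12 of the 16 and Vamp2 in 8 of the 16.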

How the data were processed

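Total RNA was isolated from 3 Treg samples with Rcor1 deletion and 3 control samples for mRNA sequencing, per the labels. The authors deposited 1 table of normalized values, taken as FPKM because they step by whole fragments per gene length. STAR and mm10 are named in the submitters' processing notes. The sources used here do not state the counting tool, annotation or filters. Columns were matched to samples by their names, which are the sample descriptions. Symbols, biotypes and positions came from GENCODE M21 (GRCm38), in which 34490 of 35275 identifiers matched. Whole fragments were recovered within 0.01 fragments for 70.0% of 21898 genes above 0 with the longest transcript, and for all but 1 of the others with a solved length.

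The test was limma (version 3.58.1, R 4.3.3) with a trend, on log2(FPKM + 1), which understates changes of low genes. The tested genes reached 1 FPKM in 3 or more libraries, and the test was two-sided with Benjamini-Hochberg adjustment over all 11575 and a threshold of 0.05. Adjusted p-values in the report are from this fit unless another is named. On fragments simulated for 11465 genes at these depths, deletion against control, it recovered 63 of 98 genes changed 1.5-fold and 99 of 100 changed 2-fold, with 11 false calls. The simulation gave every gene the same spread between replicates and changed few genes, so it does not give the error rates of these data. Alternatives were pseudocounts of 0.1 and 5, other filters, scalings and variance models, voom on recovered fragments, the replicate block and each library left out. The named genes were all members past the threshold, those with an unadjusted p under 0.05 and Rcor1 in full, the rest by mean, and untested members by range, by name from 0.5 FPKM or where groups did not overlap at a mean of 0.2 FPKM. Stxbp6, other low members and Lpar6's values fall outside this rule and were chosen after their values were seen. Members, lists, ratios and sequence motifs were chosen with earlier results of these data known. Libraries of a group differed by far more than sampling noise. No batch is given, so preparation and group cannot be told apart. Values of some members are not reported here, though counts over the members include them.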

Additional observations from a re-analysis of the deposited data

How the results depend on the processing

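Vamp5 kept its direction and call in all 15 alternatives (log2 fold change 0.48 to 0.75), and none of the 10 members with an unadjusted p under 0.05 changed direction in those that could be run. Directions of the other members were not compared across settings. Syt11 (0.38 to 0.53) passed in 11 and Vamp2 (0.36 to 0.57) in 7 of the 15. The number of members that changed was 3 as reported, 1 with the replicate number as a block, and 1 to 6 with 1 library left out. For all genes, against 1392 (1036 rose, 356 fell), it was 844 with no filter, 868 with quantile normalization, 404 with the block and 279 to 1862 with 1 library left out, while scaling by median ratios gave 528 higher and 688 lower. For the surrounding machinery, against 6, it was 3 with median-ratio scaling, 3 with quantile normalization, 5 with voom (2 rose, 3 fell), 1 with the block and 1 to 9 with 1 library left out. The members' median log2 fold change, 0.09 as reported, was 0.030 with no filter, 0.0047 with median-ratio scaling, 0.0081 with quantile normalization, 0.016 with voom and 0.083 to 0.16 with 1 library left out. Over all tested genes the median, 0.08 as reported, was 0.026 with no filter and 0.0020 with voom. It was -0.0058 with median-ratio scaling, -0.0047 with quantile normalization and 0.073 to 0.090 with 1 library left out. Rcor1 passed the threshold with a filter at 5 FPKM (log2 fold change -0.24), median-ratio scaling (-0.33), quantile normalization (-0.33) and voom (-0.35), and lay between -0.29 and -0.20 with 1 library left out. The causes were not tested. Same-numbered libraries did not deviate together in all pairs (correlations 0.21, -0.14 and -0.16), so the numbers were not taken to pair the samples. Without the block 3 members passed, and with it Vamp5 alone. The untested members had at most 78 fragments in a library, which limits what their levels can show.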
